A study of Homo sapiens with 4 samples.

Results

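The keratin family was described in human gastric cancer cell lines treated with estradiol, the main oestrogen. Its members were all rows of the deposited gene count table annotated as protein coding whose symbol is KRT, a number and at most 1 further letter, which gave 55 genes of the 58336 rows. RNA sequencing had been done on 4 libraries of unmodified (wild-type) cells: AGS cells given 10 nM estradiol (labelled E2) for 1 day, AGS control cells (labelled nc), HGC-27 cells given the same dose for 1 day, and HGC-27 control cells. AGS is an established line from a gastric adenocarcinoma that grows as epithelium, and HGC-27 is an established line from an undifferentiated gastric carcinoma. There was 1 library for each line and treatment, and the labels do not say that libraries came from separate cultures, so p-values speak of the spread between these libraries, which may be technical.

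Keratins are the intermediate filament proteins of epithelial cells. Each filament is built from pairs of a type I and a type II keratin, so a cell that makes filaments needs members of both types, and the pair in use changes with the kind of epithelium. KRT8 with KRT18 is the pair of simple epithelia such as the stomach lining, where KRT19 adds a second type I partner. Stratified epithelia, wounded skin and hair use other pairs. Cells of mesenchymal character build their filaments mainly from vimentin.

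Of the 55 members, 28 were type I, 26 were type II and KRT222, a shortened member, was given no type. The table places 27 on chromosome 12 and 28 on chromosome 17. In all 4 libraries 23 members had 0 counts, and 32 had at least 1 count somewhere. The filter on low counts kept 15 members; the other 17 detected members had at most 16 counts in any library. A member could pass this filter through 1 line alone and then had to differ between lines, so counts over the 15 are descriptions.

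Total counts ranged from 24597379 to 28734374 per library. Libraries of the same line correlated at 0.997 and libraries of different lines at 0.777 to 0.781 (Pearson r of log2(CPM + 1), where CPM are counts per 1000000 TMM-scaled reads, across tested genes, which are not independent). The cell types were checked with marker lists. Over all tested genes, 35.7% were called higher in AGS and 41.5% lower. Of 9 epithelial markers 8 were tested and all 8 were higher in AGS, but 3 of them are KRT8, KRT18 and KRT19 themselves. KRT19 passed the low-count filter through AGS alone. The 6 that are not keratins, EPCAM among them, summed to 1064 and 1117 CPM in AGS estradiol and control, against 8.68 and 7.74 CPM in HGC-27 estradiol and control. Of 6 mesenchymal markers 5 were tested and all 5 were lower in AGS. The 6 summed to at most 5.57 CPM in AGS, against 2020 to 2045 CPM in HGC-27. SPARC and TWIST1 were at 0 in both AGS libraries. They passed the low-count filter through HGC-27 alone, so their direction was fixed. CDH2 did not pass the low-count filter. It had 11 and 5 counts in AGS estradiol and control, against 0 and 4 in HGC-27 estradiol and control. All 5 fibroblast markers were lower in AGS (30.1 to 32.2 CPM, against 1738 to 1812 CPM in HGC-27), with LUM, DCN and COL1A2 at 0 in both AGS libraries. LUM, DCN and COL1A2 also passed the filter through HGC-27 alone, so their direction was fixed. These marker lists moved with the line, and their part in the line differences was not tested. The 3 endothelial markers summed to at most 0.657 CPM in any library. The 5 keratinocyte markers summed to 16.3 to 17.7 CPM in AGS, against 21.9 to 22.1 CPM in HGC-27, most of it KRT10, with KRT1 at 0 in all libraries. The basal regulator TP63, one of these 5, had 0 and 2 counts in AGS estradiol and control, against 85 and 72 in HGC-27 estradiol and control, and was called lower in AGS (log2 difference -6.13 ± 0.67, SE, edgeR adjusted p = 1.14e-17). TP63 too passed the filter through HGC-27 alone, so this direction was fixed. In bulk RNA, fewer cells of a type and less RNA per cell cannot be told apart.

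Start-site windows of 3 keratins are shown because these genes behave differently in the counts: KRT8 led both lines, KRT10 stood at nearly the same level in both, and KRT4 was the member called lower in AGS. Each window runs from 250 bases before to 50 bases after the start that RefSeq gives (GRCh38.p14, minus strand, written 5′ to 3′). KRT8 is at chr12:52926420-52926719, a start inside the KRT8 row of the table, KRT4 is at chr12:52814067-52814366 and KRT10 is at chr17:40822565-40822864. The KRT8 row spans 52897187 to 52949954, and which start its reads came from was not tested. Capitals mark the motif match named in the text after the sequences, and bases are counted from 1 at the 5′ end.
KRT8: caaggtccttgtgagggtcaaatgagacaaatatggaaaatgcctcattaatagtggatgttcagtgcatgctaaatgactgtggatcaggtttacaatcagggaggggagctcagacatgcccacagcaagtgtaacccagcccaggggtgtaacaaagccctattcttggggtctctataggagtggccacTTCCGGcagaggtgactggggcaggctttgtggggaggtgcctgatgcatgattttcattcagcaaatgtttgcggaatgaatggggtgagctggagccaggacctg
KRT4: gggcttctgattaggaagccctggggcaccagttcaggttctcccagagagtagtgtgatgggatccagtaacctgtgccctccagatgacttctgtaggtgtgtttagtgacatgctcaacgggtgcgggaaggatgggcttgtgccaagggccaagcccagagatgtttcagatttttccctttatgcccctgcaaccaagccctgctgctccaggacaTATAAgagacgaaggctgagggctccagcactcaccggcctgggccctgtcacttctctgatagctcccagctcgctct
KRT10: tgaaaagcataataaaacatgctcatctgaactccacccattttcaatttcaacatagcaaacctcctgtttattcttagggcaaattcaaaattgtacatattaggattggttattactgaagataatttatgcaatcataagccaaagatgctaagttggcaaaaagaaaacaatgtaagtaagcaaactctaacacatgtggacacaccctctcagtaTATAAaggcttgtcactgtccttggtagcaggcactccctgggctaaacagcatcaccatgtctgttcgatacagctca

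The capitals in KRT4 and KRT10 are a TATA box (TATAA), which begins at base 222 of both windows. Those in KRT8 are an ETS motif (CCGGAA, found on the other strand) at base 194. RefSeq windows were matched for 34 of the 55 members, and TATAA on either strand was in 25 of these 34 (73.5%), against 21.2% of 27058 gene windows of the same length. The GC box GGGCGG was in 6 keratin windows (17.6%, against 44.5% of all windows), and the E-box CACCTG, a motif of ZEB and SNAI factors, in 8 (23.5%, against 20.6%). The oestrogen response half-site AGGTCA was in 3 (8.82%, against 13.9%). The full palindrome of the oestrogen response element was in 0 of the 34 windows and in 0.0665% of all windows, and the AP-1 motif TGANTCA in 0 of 34, against 7.78%. Keratin windows had a median GC content of 45.7%, against 58.3% over all windows. These are matches of letters on either strand, with no test.

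The comparison of the lines asked which keratins each line expresses. AGS held the simple-epithelial keratins KRT8, KRT18 and KRT19 at very high levels, and HGC-27 held small amounts of KRT8, KRT10, KRT80 and KRT4 with hardly any KRT18 and KRT19. Reads on keratins made up 0.553% (AGS estradiol) and 0.512% (AGS control) of all counts, against 0.0114% (HGC-27 estradiol) and 0.0111% (HGC-27 control). The exact binomial 95% intervals of these shares were 0.550% to 0.555%, 0.509% to 0.515%, 0.0110% to 0.0118% and 0.0107% to 0.0115%, and cover counting error only. Of the 15 members tested, 13 were higher in AGS, 1 was lower and 1 did not pass (edgeR quasi-likelihood test, adjusted p under 0.05 over all 18278 tested genes). Calls of this kind were made for 77.2% of all tested genes, 35.7% higher and 41.5% lower in AGS, and 78.3% had an unadjusted p under 0.05. Each line was represented by 1 control and 1 estradiol library. This left 1 residual degree of freedom per gene, so the errors of the line differences come mainly from the spread shared across genes. The median log2 difference (AGS minus HGC-27) of the 15 was 5.68, or 5.29 with the 5 members at 0 in HGC-27 set at their lower bounds, against -0.10 over all tested genes. KRT19 (2 and 1 counts in HGC-27 estradiol and control), KRT15 (7 and 0) and KRT81 (3 and 3) also passed the filter through AGS alone. KRT4 (0 and 10 counts in AGS estradiol and control) passed it through HGC-27 alone. The direction of all these members was fixed by the filter, so both medians are descriptions.

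**Figure D1:**
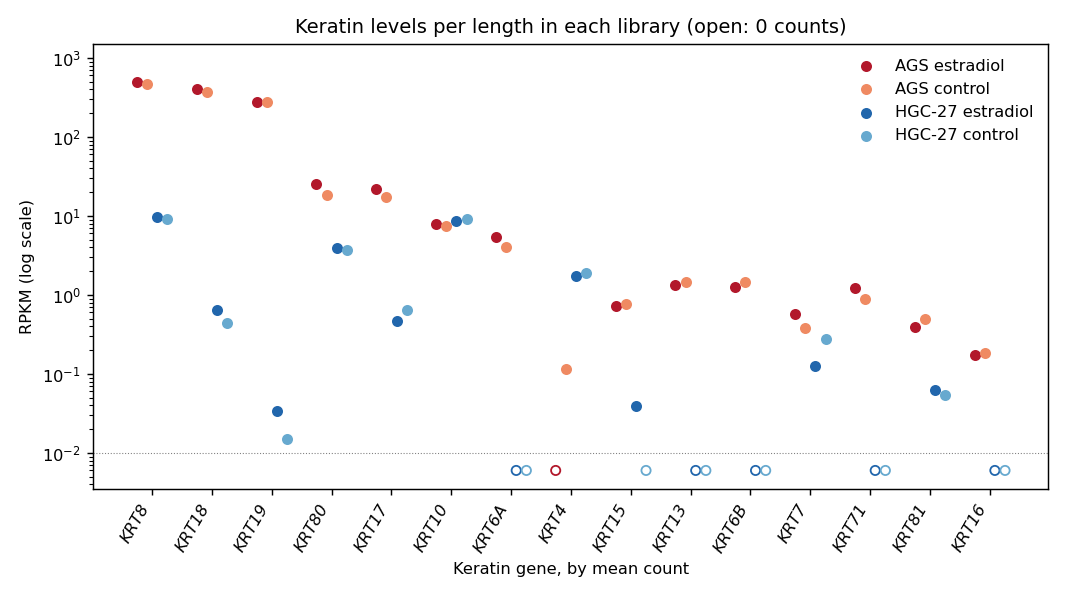
Levels of the 15 tested keratins in RPKM (CPM per kilobase of gene length, log scale) in each of the 4 libraries; open circles below the dotted line are 0 counts. KRT8, KRT18 and KRT19 lie between 273 and 500 RPKM in AGS, while in HGC-27 the highest is KRT8 at 9.59 RPKM, and KRT10 lies at 7.43 to 9.03 RPKM in all 4 libraries.

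KRT8, the type II keratin of simple epithelia (ENSG00000170421, GRCh38 as for all positions here, chromosome 12, 52897187 to 52949954), was the highest keratin in both lines. It had 95025 counts in AGS estradiol and 83122 in AGS control, against 1649 in HGC-27 estradiol and 1825 in HGC-27 control. Per length this was 499.6 and 465 RPKM in AGS, against 9.59 and 9.17 RPKM in HGC-27, where RPKM are the CPM divided by the gene length of the table in kilobases. It ranked 31 and 34 among protein-coding genes by RPKM in AGS, and 4396 and 4601 in HGC-27. The log2 difference was 5.68 ± 0.06 (SE, n = 2 libraries per line, adjusted p = 6.33e-267), a fold of 51.4, with every AGS library above every HGC-27 library.

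KRT18, the type I partner of KRT8 (ENSG00000111057, chromosome 12, 52948871 to 52952901), was near absent from HGC-27. It had 36166 and 30519 counts in AGS estradiol and control (407 and 365 RPKM), against 52 and 41 counts in HGC-27 estradiol and control (0.647 and 0.440 RPKM). The log2 difference was 9.48 ± 0.09 (SE, adjusted p = 9.45e-289), the largest after KRT19 among members with counts in both lines. The KRT8 and KRT18 rows overlap by 1084 bases on opposite strands. Rows of KRT18 pseudogenes held 51 and 47 counts in AGS estradiol and control (0.141% and 0.154% of KRT18), against 49 and 35 in HGC-27 estradiol and control (94.2% and 85.4% of KRT18). With pseudogene counts added to the gene, the KRT18 difference was 8.56 and that of KRT8 was 5.51.

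KRT19, the smallest type I keratin, which lacks the usual tail domain (ENSG00000171345, chromosome 17, 41523617 to 41528308), had 17846 and 16603 counts in AGS estradiol and control (276 and 273 RPKM). In HGC-27 it had 2 and 1 counts. The ratio of depth-scaled summed counts, AGS over HGC-27, was 11546 with a 95% counting interval of 3950 to 55990, the widest difference among members with counts in both lines (adjusted p = 6.59e-277). KRT7, a type II keratin of ducts and glands, was low in all 4 libraries, with 64 and 41 counts in AGS estradiol and control, against 13 and 33 in HGC-27 estradiol and control (log2 difference 1.23 ± 0.42, SE, adjusted p = 0.00596). This call ended without the AGS estradiol library (0.91, adjusted p = 0.0768) and without the HGC-27 estradiol library (0.76, adjusted p = 0.136). It also ended with all 4 libraries in DESeq2 (1.31, adjusted p = 0.194) and in limma-voom (adjusted p = 0.0578), where the difference was no smaller than in the fit above. The KRT7 row overlaps KRT86 by 2887 bases. KRT20, the type I keratin of intestinal and gastric surface cells, had 8 and 7 counts in the AGS libraries, and 1 in each of HGC-27, and did not pass the filter.

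KRT8 had far less of its usual partner in HGC-27. The ratio of KRT8 to KRT18 per length was 1.23 and 1.27 in AGS estradiol and control, against 14.8 (95% counting interval 11.3 to 19.9) and 20.8 (15.3 to 29.1) in HGC-27 estradiol and control. With the length of each gene's principal transcript in GENCODE in place of the table's, it was at least 1.93 in both AGS libraries, against 23.3 and 32.7 in HGC-27. Summed over all members, type II over type I levels were 0.746 and 0.736 in AGS, against 1.55 and 1.47 in HGC-27, so the lines lay on opposite sides of 1. The side of 1 depended on the length used: the KRT8 row is 6881 bases long in the table, against 2126 bases for its principal transcript, and with principal transcript lengths the ratios of the sums were 1.23 and 1.23 in AGS, against 3.44 and 3.29 in HGC-27. Under both lengths HGC-27 was above AGS. The highest type I member was KRT18 in AGS and KRT10 in HGC-27.

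**Figure D2:**
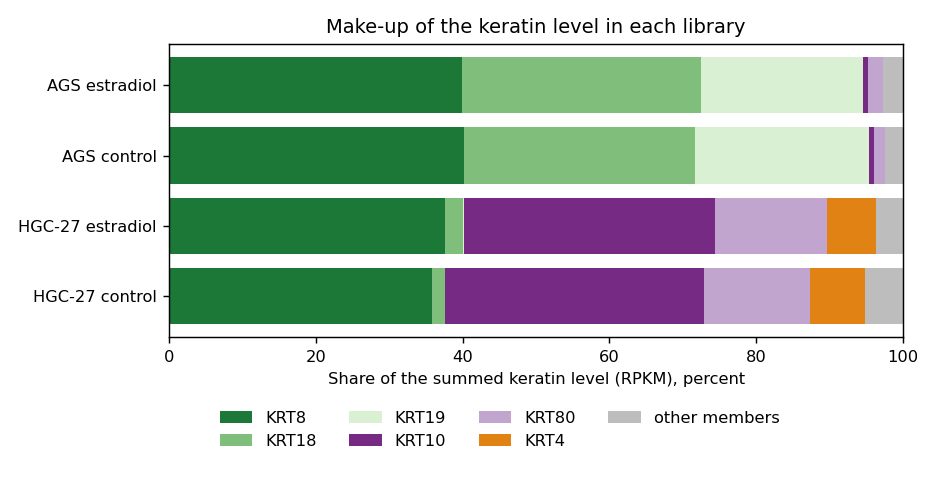
Share of the summed keratin level (RPKM, percent) taken by 6 named members and by all others, in each library. KRT8, KRT18 and KRT19 fill the AGS bars, while in HGC-27 KRT8 takes 35.8% or more, KRT10 34.1% or more and KRT18 2.53% or less. The shares use the table's gene lengths, and with principal transcript lengths KRT8 takes 61.2% or more and KRT10 18.8% or less in HGC-27.

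The lines differed in the make-up of the keratin level. With the table's gene lengths, KRT8 took 35.8% to 40.2% of it in all 4 libraries. KRT18 took 32.5% and 31.5% in AGS, against 2.53% and 1.72% in HGC-27, and KRT19 took 22.1% and 23.6% in AGS, against 0.134% and 0.0578% in HGC-27. KRT10 went the other way, with 0.637% and 0.642% in AGS and 34.1% and 35.3% in HGC-27. These shares also moved with the length used. With principal transcript lengths KRT8 took 53.8% and 54.0% in AGS estradiol and control, against 63.1% and 61.2% in HGC-27 estradiol and control. KRT10 then took 0.268% and 0.269% in AGS, against 17.9% and 18.8% in HGC-27, so its near parity with KRT8 in HGC-27 holds for the table's lengths alone of these 2 choices.

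Keratins of wounded and rapidly dividing epithelium were higher in AGS. KRT17, a type I stress keratin (chromosome 17, 41619437 to 41624842), had 1532 and 1149 counts in AGS estradiol and control, against 30 and 47 in HGC-27 estradiol and control, a log2 difference of 5.11 ± 0.14 (SE, adjusted p = 3.65e-126). KRT6A, a type II keratin induced at wound edges (chromosome 12, 52487174 to 52493257), had 432 and 307 counts in AGS estradiol and control, and 0 in both HGC-27 libraries. This was at least 248-fold higher in AGS when HGC-27 is set at 3 counts over its libraries together. KRT6B, its near copy, had 79 and 87 in AGS estradiol and control, and none in HGC-27 (at least 55.6-fold higher), and KRT16, the type I partner of KRT6, had 12 in each AGS library and none in HGC-27 (at least 8.04-fold higher). KRT6C had 8 and 6 in AGS estradiol and control, none in HGC-27, and did not pass the filter. All 4 tested members of this class of 5 were called higher in AGS, against 35.7% of all tested genes, but 3 of them were at 0 in HGC-27 and passed the filter through AGS alone, so their direction was fixed. Without either AGS library, KRT16 no longer passed the filter and its call ended. The KRT6 genes are close copies: KRT6A, KRT6B and KRT6C shared 52.7%, 58.3% and 61.7% of the 31-base stretches of their main transcript with another gene, so the split of reads among them is uncertain.

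The keratins of stratified epithelium divided between the lines. KRT13, the type I keratin of mucosal stratified epithelium such as the oesophagus, had 108 and 110 counts in AGS estradiol and control and 0 in HGC-27 (at least 73.1-fold higher in AGS). KRT4, its type II partner in that tissue (ENSG00000170477, chromosome 12, 52806549 to 52814551), had 0 and 10 counts in AGS estradiol and control, against 142 and 182 in HGC-27 estradiol and control. It was the 1 keratin called lower in AGS (log2 difference -4.99 ± 0.41, SE, adjusted p = 5.12e-29). The fitted size rests on the AGS control library, since without it AGS is at 0. KRT15, a type I keratin of basal cells, had 143 and 139 counts in AGS estradiol and control, against 7 and 0 in HGC-27 estradiol and control (log2 difference 5.29 ± 0.45, SE, adjusted p = 6.77e-27). Its size rests on the HGC-27 estradiol library, since HGC-27 is at 0 without it. The defining basal pair was near absent: KRT5 had 2 counts in AGS estradiol and 0 elsewhere, and KRT14 had 16 and 8 counts in AGS estradiol and control, against 0 and 1 in HGC-27 estradiol and control.

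KRT10, the type I keratin of suprabasal epidermis (ENSG00000186395, chromosome 17, 40818117 to 40822595), was the 1 tested member that did not differ past the threshold. It had 7.96 and 7.43 RPKM in AGS estradiol and control, against 8.71 and 9.03 RPKM in HGC-27 estradiol and control. The ranges did not overlap, but the log2 difference of -0.21 ± 0.11 (SE) had an adjusted p of 0.0896. It passed when libraries were scaled by total count alone (-0.24, adjusted p = 0.0493) or when protein-coding genes alone were fitted (-0.25, adjusted p = 0.0368). The row overlaps TMEM99 on the other strand, which had 83 and 91 counts in AGS estradiol and control, against 213 and 277 in HGC-27 estradiol and control. The sources used here do not say whether counting used strand, so reads of this pair may be mixed. KRT1 and KRT2, the type II partners of KRT10 in skin, were at 0 in all 4 libraries.

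KRT80, a type II keratin found in many epithelia near cell junctions (ENSG00000167767, chromosome 12, 52168996 to 52192000), was expressed in both lines. It had 3062 and 2056 counts in AGS estradiol and control (25.5 and 18.2 RPKM), against 422 and 469 in HGC-27 estradiol and control (3.88 and 3.73 RPKM), a log2 difference of 2.50 ± 0.08 (SE, adjusted p = 2.30e-109). Its difference was the smallest among called members with a mean of at least 100 counts. In HGC-27 it was the third keratin by RPKM, after KRT8 and KRT10.

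**Figure D3:**
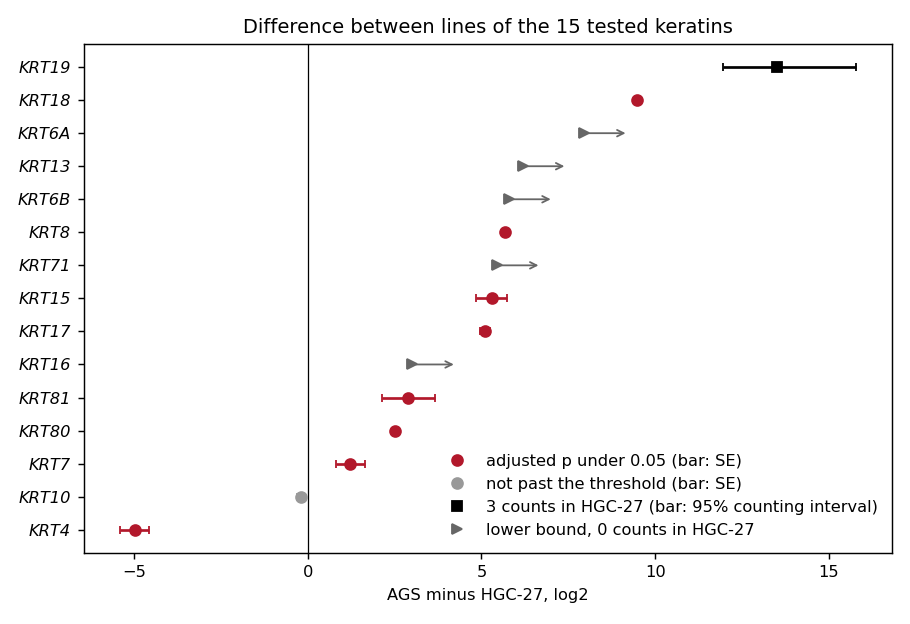
Log2 difference, AGS minus HGC-27, of the 15 tested keratins; bars are the SE, or the 95% counting interval for KRT19, and arrows are lower bounds for members at 0 in HGC-27. KRT4 lies at -4.99, KRT10 near 0 and all others above 0.

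Hair and root-sheath keratins were low, the highest being KRT71 with 77 counts in AGS estradiol. Of 17 hair shaft keratins 9 had a count in some library, and 1 was tested: KRT81, a type II hair cortex keratin also seen in some carcinomas, with 21 and 25 counts in AGS estradiol and control, against 3 in each HGC-27 library (log2 difference 2.90 ± 0.76, SE, adjusted p = 0.000280). KRT81 shared 53.2% of its 31-base stretches with another gene, and its row overlaps that of KRT86 by 5622 bases on the other strand. KRT86, also a hair keratin, had 8 and 2 counts in the estradiol libraries of AGS and HGC-27, and 0 in both controls. Of 9 inner root sheath and companion layer keratins 3 had a count, and KRT71, a type II inner root sheath keratin, was tested, with 77 and 53 counts in AGS estradiol and control and none in HGC-27 (at least 43.6-fold higher in AGS). Of the 17 members with counts that were not tested, 11 had more counts in AGS and 5 more in HGC-27, and none exceeded 4 counts in HGC-27.

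The estradiol comparison asked whether keratins changed over both lines, with the line as a block. KRT80 alone passed, higher with estradiol, and the main keratins KRT8, KRT18 and KRT19 did not. Of the 15 tested members 1 was called, against 0.153% of all 18278 genes (28), 21 of them higher (0.115%) and 7 lower (0.0383%), and 3 had an unadjusted p under 0.05 (KRT80, KRT18 and KRT17), against 3.24% of all genes. The fitted change was above 0 for 9 of the 15 members and below 0 for 6. Its median was 0.02 on the log2 scale, against -0.000724 over all tested genes. KRT6A, KRT13, KRT6B, KRT71 and KRT16 were at 0 in both HGC-27 libraries, so their fitted changes come from AGS alone. Each gene leaves 1 residual degree of freedom, so the errors come mainly from the spread shared across genes.

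KRT80 had 110.8 CPM in AGS estradiol and 79.1 CPM in AGS control, and 16.9 CPM in HGC-27 estradiol and 16.2 CPM in HGC-27 control. The fitted log2 change was 0.33 ± 0.08 (SE, n = 2 libraries per treatment, edgeR adjusted p = 0.0135). Within AGS the log2 ratio was 0.49 with a counting interval of 0.40 to 0.57, and within HGC-27 it was 0.06 (-0.13 to 0.25). The difference between these ratios was not tested, since no replicate of a line and treatment exists. The adjusted p ranged from 0.00328 to 1.00 over the other settings. The call was lost without the line as a block (1.00), in DESeq2 (1.00), in limma-voom (0.990), with total-count scaling (0.153), without a filter on low counts (0.0522) and without genes of shared sequence (0.434).

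Within AGS, 9 members had a mean of at least 100 counts in that line. Of these 9, 5 had a 95% counting interval above 0 and 0 below, while over all 10917 genes of that depth 14.2% lay above and 15.5% below. Such intervals cover counting error only and are narrowest for the most abundant genes. KRT8 had a log2 ratio of estradiol over control of 0.10 (interval 0.09 to 0.12), KRT18 of 0.16 (0.13 to 0.18) and KRT19 of 0.02 (-0.02 to 0.05). KRT17 had a ratio of 0.33 (0.21 to 0.44) and KRT6A of 0.40 (0.19 to 0.62), KRT10 of 0.10 (-0.09 to 0.29), KRT15 of -0.05 (-0.39 to 0.30) and KRT13 of -0.12 (-0.51 to 0.28). Summed over the family the ratio was 0.11 (0.10 to 0.13). Without KRT8, KRT18 and KRT19 it was 0.36 (0.30 to 0.41), where KRT80 gave 3062 of the 6073 estradiol counts and 2056 of the 4453 control counts. The fitted changes of KRT18 (0.18 ± 0.07, SE, adjusted p = 1.00), KRT17 (0.24 ± 0.12, adjusted p = 1.00) and KRT6A (0.40 ± 0.23, adjusted p = 1.00) did not pass over both lines. KRT6A was at 0 in both HGC-27 libraries, so its fitted change comes from AGS alone.

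Within HGC-27, the intervals of all keratins of that depth included 0. Of 4 members with a mean of at least 100 counts there, 0 had an interval above 0 and 0 below (10.8% and 14.6% of 11663 genes). KRT8 had a ratio of 0.06 (-0.03 to 0.16), KRT10 of -0.05 (-0.23 to 0.13) and KRT4 of -0.15 (-0.47 to 0.18), and the whole family 0.03 (-0.05 to 0.10). At the low counts of HGC-27, KRT17 had a ratio of -0.43 (-1.15 to 0.25), and KRT18 of 0.55 (-0.06 to 1.18). KRT7 had a ratio of -1.10 (-2.18 to -0.17) in HGC-27, against 0.55 (-0.03 to 1.16) in AGS. Low-count intervals also excluded 0 for KRT15 in HGC-27 (above 0.74), and for KRT4 (below -1.25) and KRT86 (above 0.68) in AGS. Each of these had 0 counts in 1 library of that line.

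**Figure D4:**
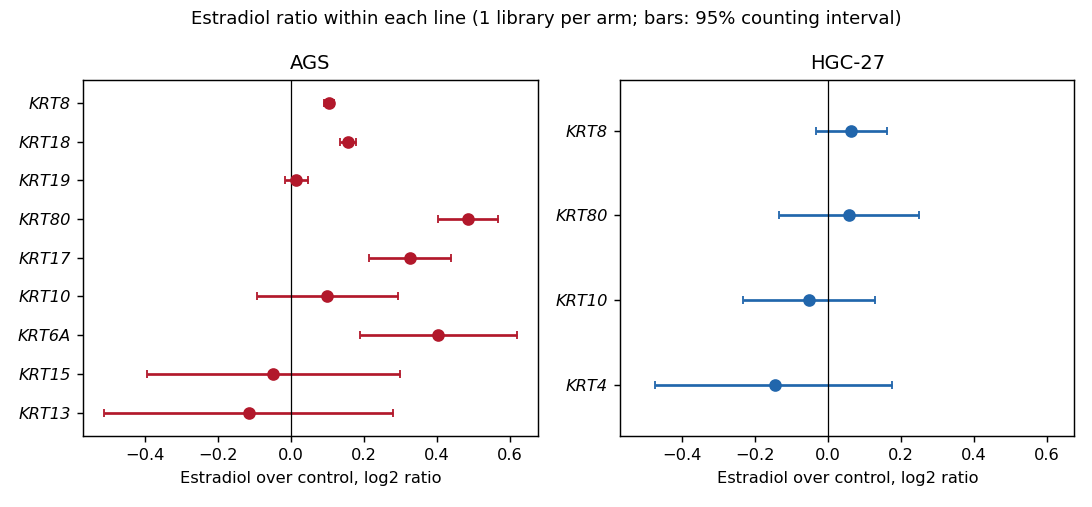
Log2 ratio of estradiol over control within AGS and within HGC-27 for keratins with a mean of at least 100 counts in that line; bars are 95% counting intervals from 1 library per arm. In AGS, 5 of 9 intervals lie above 0, led by KRT80 at 0.49, and in HGC-27 all 4 include 0.

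Vimentin and synemin were lower in AGS. Of 13 genes of other cytoplasmic intermediate filaments 8 were tested, 5 were lower and 2 higher in AGS (edgeR, same test), where 41.5% of all tested genes were lower, 35.7% higher and 77.2% called either way. Vimentin, VIM, had 0.372 and 0.403 RPKM in AGS estradiol and control, against 265 and 263 RPKM in HGC-27 estradiol and control (log2 difference -9.41 ± 0.09, SE). The summed keratin level was 1250 and 1157 RPKM in AGS, against 25.5 and 25.6 RPKM in HGC-27, so that VIM was 10.4 and 10.3 times the keratin sum in HGC-27. Synemin, SYNM, which joins vimentin filaments, was lower in AGS by a log2 difference of -8.06 ± 0.15, and so were the neuronal filament gene PRPH (-7.19 ± 0.38) and SYNC (-3.98 ± 0.32). Nestin, NES, was higher in AGS (0.52 ± 0.05), and desmin, DES, did not pass (-0.21 ± 0.25). Lamins, the filaments of the nucleus that every cell needs, were nearly level: LMNA was higher in AGS (0.31 ± 0.05), LMNB2 lower (-0.45 ± 0.05) and LMNB1 did not pass (0.01 ± 0.05).

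Of 16 genes listed as linkers of keratin filaments 15 were tested, and 12 were higher and 2 lower in AGS, against 35.7% and 41.5% of all tested genes. Their median log2 difference was 6.21, against -0.10 over all tested genes. The desmosomal linker DSP had 35776 and 33599 counts in AGS estradiol and control, against 392 and 404 in HGC-27 estradiol and control (6.45 ± 0.07, SE), and JUP, plakoglobin, differed by 7.49 ± 0.08. Linkers of the wider cytoskeleton were expressed in both lines. PLEC was higher in AGS by 1.08 ± 0.05 and DST by 0.11 ± 0.05, while MACF1 (-0.30 ± 0.05) and the keratin-binding chaperone DNAJB6 (-0.56 ± 0.06) were lower in AGS. The DST call lay close to the threshold (edgeR adjusted p = 0.0438). Of 20 transcription regulators of epithelial or mesenchymal state 18 were tested, and 12 were higher and 6 lower in AGS, against the same 35.7% and 41.5% of all tested genes. Genes of these related lists could also pass the filter through 1 line alone, as PRPH, FAM83H and ZEB2 did, so counts and medians over them are descriptions. KLF5 (2.66 ± 0.06), ELF3 (8.45 ± 0.11), HNF4A (9.18 ± 0.16) and CDX2 (4.49 ± 0.10) were higher, and ZEB1, a repressor of epithelial genes, was lower (-6.44 ± 0.12). GRHL2, an activator of epithelial genes, had 1727 and 1625 in AGS estradiol and control, against 2 and 1 in HGC-27 estradiol and control (ratio 1123, counting interval 384 to 5450). With estradiol, 0 of the 44 tested genes of these lists passed in edgeR, against 0.153% of all tested genes. Of the 44, 2 had an unadjusted p under 0.05, against 3.24% of all tested genes. DESeq2, which tested 49 of the lists, and limma-voom called 0 of all genes, so their 0 calls here add nothing. Each had 1 gene of these lists at that unadjusted p.

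**Figure D5:**
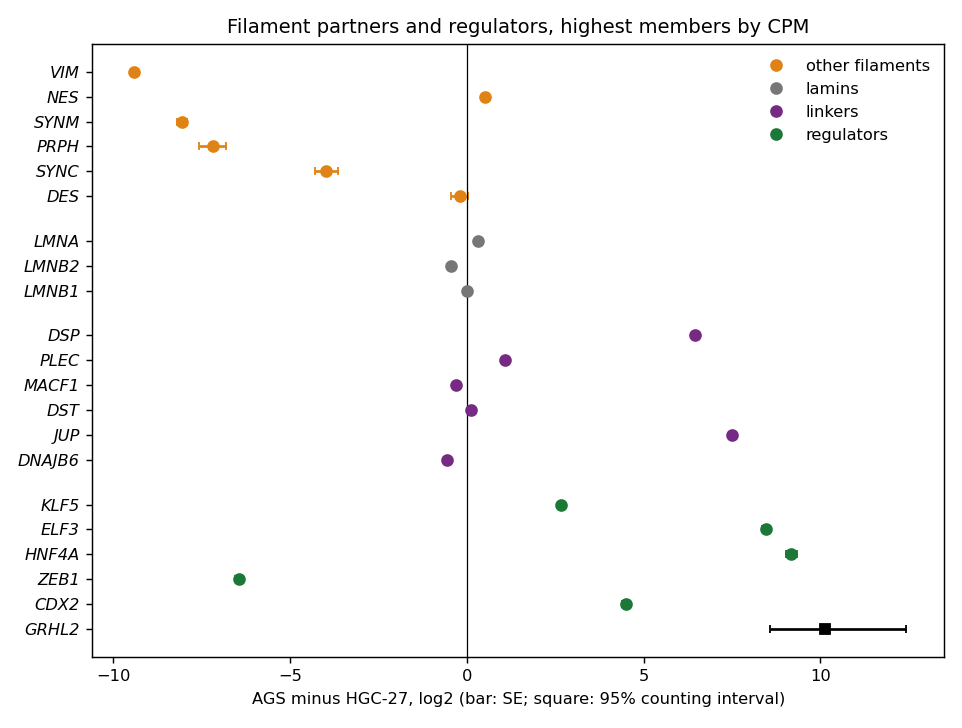
Log2 difference, AGS minus HGC-27, of up to 6 genes with the highest mean CPM in each list of other filaments, lamins, keratin linkers and regulators; bars are the SE, and the square is the counting interval of GRHL2. VIM and ZEB1 lie far below 0, desmosomal DSP and JUP far above, and the lamins near 0.

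Rows of keratin pseudogenes were few in reads in AGS and a larger part in HGC-27. The 136 rows named as numbered keratin pseudogenes, 51 of them with a count, summed to 504 and 441 counts in AGS estradiol and control, and 257 and 292 in HGC-27 estradiol and control. This was 0.325% and 0.327% of the keratin counts in AGS estradiol and control, against 9.18% and 9.17% in HGC-27 estradiol and control. The 50 rows of KRT8 pseudogenes held 450 and 391 in AGS estradiol and control, against 207 and 254 in HGC-27 estradiol and control. The highest of them, KRT8P12, had 250 in each AGS library, against 144 and 180 in HGC-27 estradiol and control. KRT8 and KRT18 shared 51.1% and 60.4% of their 31-base stretches with another gene, so reads may have been split among copies.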

How the data were processed

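TRIzol-extracted total RNA was made into libraries following an NEB protocol, per the labels' protocols. Reads were aligned with HISAT2 and counted with featureCounts, per the submitters' processing notes; versions, strand and multiply matching reads are not given there. Values are the deposited raw gene counts. The notes name hg18, but 57393 of 58336 rows, and 53 of 55 keratins, have the position of GENCODE release 29 on GRCh38, so coordinates are GRCh38.

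Counts were tested with edgeR 4.0.16 (R 4.3.3): filterByExpr, TMM, quasi-likelihood F-test on cell line plus treatment, Benjamini-Hochberg over all genes, threshold 0.05 (prior degrees of freedom 396.9). The number in the library name is the cell line, so control and estradiol libraries are paired by line and the line was the replicate block. RPKM use the table's gene length and TMM-scaled totals; 3 counts are 0.104 to 0.120 CPM. Within a line, log2 ratios used a prior of 0.5 counts with exact binomial 95% intervals. DESeq2 1.42.0 and limma-voom 3.58.1 were alternatives. The steps were tested on simulated data.

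Members with a mean of at least 100 counts or an estradiol call were named by rule, with up to 6 genes per related list by mean CPM; the other members named were chosen after their values were seen. Members and lists were chosen with earlier results of these data known. The result of 1 further marker list is not reported here.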

Additional observations from a re-analysis of the deposited data

How the results depend on the processing

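In the line comparison, all 14 called keratins kept the direction of their difference under every alternative that fitted them. The number called was 12 to 16 (11 to 15 higher, 1 lower) when each library was left out in turn, and 9 (8 higher) without genes of shared sequence, an alternative chosen after seeing the data that removes KRT8, KRT18, KRT6A, KRT6B and KRT81. With total library size or protein-coding genes alone, 2 were lower, as KRT10 was added. KRT7 was lost in DESeq2, in limma-voom and without either estradiol library, and KRT16 was lost without either AGS library, where it no longer passed the filter.

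For estradiol, the number of keratins called, and called higher, was 0 with total library size, without a filter, without genes of shared sequence, in DESeq2, in limma-voom and with no replicate block. Over all genes it was 13 with total library size, 2 without genes of shared sequence, and 0 in DESeq2, in limma-voom and with no replicate block, the paired fit being the one reported; unadjusted p-values under 0.05 numbered 169, 490 and 2. Leaving out a library left no residual degree of freedom for this test, so only ratios of the other line were had: for KRT80 these were 0.06 to 0.49. The cause of these changes was not tested.

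Type II over type I levels without the highest member of each type were 0.112 and 0.0854 in AGS estradiol and control, and 4.57 and 4.52 in HGC-27 estradiol and control. With principal transcript length, chosen after seeing the data, they were 1.23 and 1.23 in AGS, and 3.44 and 3.29 in HGC-27. A prior of 2 counts kept all 13 within-line ratios inside their intervals. Counts under 10 in HGC-27 limit KRT19, KRT15 and KRT81, as well as the 5 tested members at 0 there. Counts of 0 and 10 in AGS estradiol and control limit KRT4.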
